A study of Danio rerio with 21 samples.

Results

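The larval neural cells were the cells with neuronal transcripts among mCherry-sorted cells of zebrafish (Danio rerio) larvae. A cell was taken as neural when it had at least 500 UMIs (unique molecular identifiers, each standing for 1 counted transcript), at most 20% mitochondrial UMIs and at least 1 UMI of 3 or more of the 6 genes elavl3, elavl4, stmn1b, snap25a, gng3 and sncb. At most 1 of the endothelial genes kdrl, cdh5, tie1 and egfl7 could be detected, and haemoglobin transcripts had to stay under 5% of UMIs. The cells were thus chosen by these 6 genes and the limits on depth, endothelial genes and haemoglobin. This rule took 534 of the 28462 larval cells kept, or 1.88% (exact 95% binomial interval 1.72 to 2.04), out of 200571 cells in all 21 libraries of the series.

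The study marked blood stem and progenitor cells with heritable mCherry in embryos and sorted the marked cells later, for single-cell RNA sequencing with a 3′ kit. Marking took place on one of 3 days post fertilization (dpf): day 1 for what is called here the early label, day 2 for the mid label and day 3 for the late label. Whole larvae were sampled 1 day after marking (2, 3 and 4 dpf), at 6 dpf and at 10 dpf, giving 9 libraries with no mutation or treatment named in the labels. For comparison, 4 libraries came from early-label larvae at 8 dpf that were mosaic mutants made by genome editing (crispants): rag1 crispants given 25 µM R848 at 6 dpf, slc24a5 crispants given R848, untreated rag1 crispants, and untreated slc24a5 crispants, the study's controls. R848 (resiquimod) is an agonist of Toll-like receptors, rag1 encodes a recombinase of lymphocyte receptor genes, and slc24a5 is a pigmentation gene. A further 8 libraries came from kidney marrow, intestine, thymus and the tesselated lymphoid network (TLN) of adults aged 4 months, each with the early and the late label. The labels call every library blood and immune cells. The promoter behind the mark, the number of larvae pooled and the sort gates were not given in the sources used here. Each group was 1 library, so no difference below has a replicate check or a test, and every interval covers counting error only. UMIs of 1 cell are not independent of each other, so an interval on summed UMIs is too narrow.

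Neurons are recognized by a common set of transcripts. The elavl3 and elavl4 genes encode RNA-binding proteins that mark newly formed and mature neurons, stmn1b encodes a microtubule regulator of the stathmin family, snap25a a protein of the synaptic vesicle fusion machinery, gng3 a G protein subunit and sncb a synuclein. Neurons then differ by transmitter (glutamate, GABA, glycine, acetylcholine, peptides), by region along the body axis and, in the retina, by their place in the light-sensing circuit. Neurons arise from neuroectoderm and neural crest and are not a known product of blood stem cells.

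The 6 genes that chose the cells were seen at different rates. A stmn1b UMI was found in 93.4% of the 534 cells, an elavl3 UMI in 84.5%, sncb in 81.6%, gng3 in 76.6%, snap25a in 71.5% and elavl4 in 70.0%. Cells just inside the limit, with exactly 3 of the 6 genes, numbered 105, and their summed level over 37 other pan-neuronal genes was 4629 CPM (the share of all UMIs times 1000000). Cells just outside it, with exactly 2, numbered 166 and had 2505 CPM of that list. The 196 cells with all 6 genes had 12022 CPM, and the 27076 cells with none had 164 CPM. The limit therefore passed through a gradient: cells with exactly 2 genes had a median of 2536.5 UMIs and those with all 6 genes 5828. In the 8 adult libraries the same rule took 2 of 121304 cells, both with at least 2 leukocyte genes.

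Genes outside the rule gave a description of the chosen cells, not a test of them. Of the 37 pan-neuronal genes fixed in a list, 36 had at least 50 UMIs in neural cells, and all 36 were past 2-fold higher in neural cells than in the other cells of the same libraries, where 41.9% of 8932 genes were. These values are means over the 3 libraries with at least 50 neural cells of the log2 ratio of CPM + 5, and the median of the 36 was 4.2, against 0.79 for all genes. The 25 highest genes outside the rule lay between 5.24 and 5.85. First came syt1a, encoding the calcium sensor of synaptic vesicle release, at 5.85 ± 0.52 (SD over the 3 libraries), with a UMI in 74.2% of neural and 1.04% of other cells. The peptide gene adcyap1b followed at 5.84 ± 0.44 and was seen in 40.3% of neural and 0.734% of other cells. Others of the 25 were vamp2, encoding a further protein of vesicle fusion, the neurexin gene nrxn1a, the secretogranin gene scg2b, the membrane glycoprotein genes gpm6aa and gpm6ab, the tubulin genes tuba1c and tuba2, and the growth-cone genes stmn2a and basp1. Several of the 25 were detected more broadly among neural cells than adcyap1b, rtn1a in 91.8% and gpm6aa in 88.4%.

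Leukocyte markers were low in the chosen cells. The summed level of 8 leukocyte genes was lower in neural than in other cells in all 9 libraries, between 0 and 457 CPM in neural cells against 370 to 1217 CPM in the others. The macrophage, neutrophil, T-cell, thrombocyte, muscle, epidermis and mesenchyme lists were likewise lower in neural cells in all 9 libraries. Some gaps were small. At 6 dpf of the mid label the mesenchyme list was at 14.8 against 15.0 CPM and the T-cell list at 472 against 572 CPM. The leukocyte level of 457 CPM in that library was 41.7 CPM without its deepest neural cell. At 10 dpf of the late label, leaving out the deepest neural cell raised the neutrophil list from 833 to 4093 CPM. The leukocyte list there rose from 92.0 to 447 CPM. The other cells of that library had 10402 CPM of the neutrophil and 1217 CPM of the leukocyte list. The erythroid and endothelial lists were also lower, but the rule itself limits haemoglobin and endothelial genes. The list of blood stem and progenitor genes was lower in 8 of 9 libraries and higher at 10 dpf of the mid label (468 CPM in neural and 277 CPM in other cells). That higher level rested on 7 tal1 UMIs in 1 cell and 1 UMI each of lmo2 and meis1b. Over all libraries meis1b, a homeobox gene of this list, was in 175 of the 534 cells. Of 9 macrophage genes 5 had a UMI in a neural cell, of 8 T-cell genes 6, of 4 thrombocyte genes 3 and of 4 neutrophil genes all 4. The macrophage genes mpeg1.1 and marco, the T-cell genes cd4-1 and cd8a, the thrombocyte gene itga2b and the erythroid gene gata1a had 0 UMIs. By contrast apoeb, a lipoprotein gene of microglia, was in 44 cells, gp1bb in 13, ccr9a in 12, thbs1b in 11, spi1b in 8 and il2rb in 5. The T-cell list gene ccr9a had 77 UMIs, 30 of them in 1 cell at 6 dpf of the mid label. A ptprc UMI, the pan-leukocyte gene CD45, was in 11 of 534, and 11 cells had 2 or more leukocyte genes. Transcripts abundant in the sorted blood cells did appear: lyz, encoding neutrophil lysozyme, in 51 cells and the embryonic globin gene hbbe1.1 in 152. With the late label lyz was in 15 of 40 neural cells at 6 dpf and 18 of 28 at 10 dpf. How much of this was free RNA was not tested. Between the larval libraries 96 barcodes were shared over the 36 pairs, none of them between 2 neural cells.

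Depth differed between libraries and within them. The libraries held 8303823 to 47512292 UMIs, and median UMIs per neural cell ran from 2020 to 8864, against 2883 to 13284.5 in the other cells. The neural UMIs of the late label at 10 dpf came mostly from 1 cell, with 451040 of the library's 565142 neural UMIs (79.8%), so that library is described by cells rather than sums. In the other 8 libraries the deepest cell held 5.43% to 29.2%. The counting software was of an older version in all late-label files, and what that version did cannot be told apart from the late label.

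Neural cells were most frequent 1 day after labelling. With the early label they made up 9.60% of cells at 2 dpf (93 of 969; 7.82 to 11.6), 0.548% at 6 dpf (16 of 2920; 0.314 to 0.888) and 0.793% at 10 dpf (59 of 7443; 0.604 to 1.02). With the mid label they were 2.44% at 3 dpf (19 of 780; 1.47 to 3.78), 0.627% at 6 dpf (14 of 2232; 0.343 to 1.05) and 0.290% at 10 dpf (9 of 3107; 0.133 to 0.549). With the late label they were 9.60% at 4 dpf (256 of 2668; 8.50 to 10.8), 0.847% at 6 dpf (40 of 4725; 0.605 to 1.15) and 0.774% at 10 dpf (28 of 3618; 0.515 to 1.12). In each label the interval 1 day after labelling lay above those at 6 and 10 dpf. The mid label at 3 dpf lay below the early label at 2 dpf and the late label at 4 dpf. Both of these had 9.60%, but counted over cells with under 5% haemoglobin the shares were 9.97% (8.12 to 12.1) at 2 dpf, 2.58% (1.56 to 4.00) at 3 dpf and 17.5% (15.6 to 19.6) at 4 dpf.

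**Figure D1:**
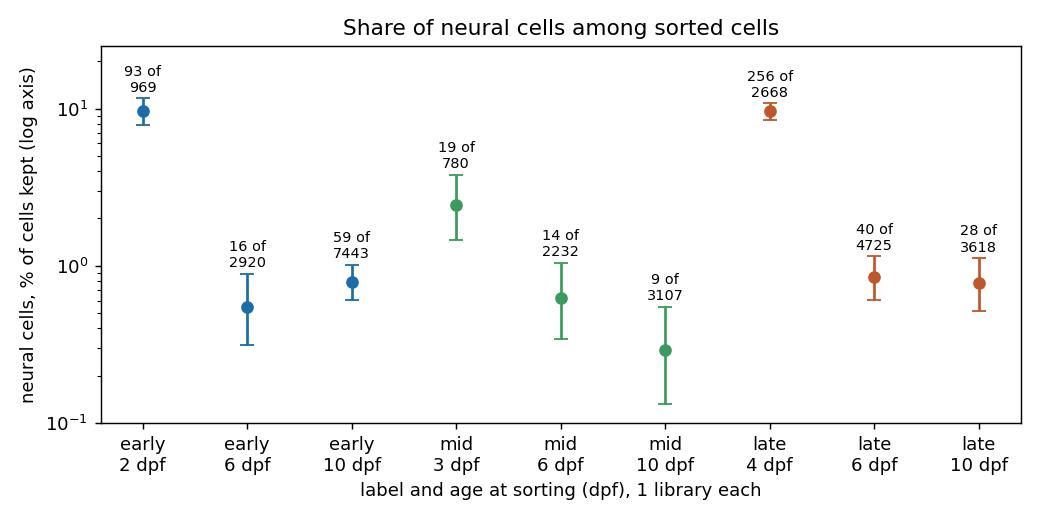
Neural cells as a percentage of cells kept, on a log axis, for the 9 larval libraries ordered by label and age; points are shares, bars exact 95% binomial intervals, and the numbers above give neural cells of all cells. The shares 1 day after labelling (9.60%, 2.44% and 9.60%) stand above all those at 6 and 10 dpf (0.290% to 0.847%).

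At 6 and 10 dpf the labels could be set side by side at equal age. At 6 dpf the early label had 0.548% and the late label 0.847%, so early minus late was -0.299 points (-0.683 to 0.118, combined from both exact intervals). With cells needing only 2 of the 6 genes this difference was -0.611 points (-1.05 to -0.149), and with 2 of elavl3, elavl4, stmn1b and sncb it was -0.510 points (-0.919 to -0.0747), so its interval left out 0 under these rules. At 10 dpf the early label had 0.793% and the late label 0.774%, so early minus late was 0.0188 points (-0.372 to 0.364). Against the mid label the early label differed by -0.0793 points at 6 dpf (-0.563 to 0.364), with 0.548% and 0.627%. At 10 dpf the early label had 0.793% and the mid label 0.290%, and this difference of 0.503 points (0.182 to 0.780) was the only one of the 4 whose interval left out 0 under the rule as given. Red cells filled very different parts of these libraries: cells with at least 30% haemoglobin UMIs numbered 2466 in the early, 867 in the mid and 3 in the late library at 10 dpf. Counted over cells with under 5% haemoglobin, the neural share at 10 dpf was 1.52% in the early, 0.456% in the mid and 0.775% in the late library. On that base the early label stood 1.07 points above the mid (0.522 to 1.57) and 0.749 above the late label (0.25 to 1.26).

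The mark itself was unevenly present. At 6 and 10 dpf an mCherry UMI was found in 72 of 166 neural cells (43.4%; 35.7 to 51.3), against 31 of 368 (8.42%; 5.80 to 11.7) 1 day after labelling. The median depth was 2531 UMIs at the later ages and 5382 UMIs 1 day after labelling. The low early share came from the early and late labels: with the mid label 7 of 19 neural cells at 3 dpf had mCherry (36.8%; 16.3 to 61.6), against 73.9% of other cells, at 231 CPM in neural and 495 CPM in other cells, and 7 of 14 at 6 dpf and 4 of 9 at 10 dpf had it. At 2 dpf of the early label 14 of 93 neural cells (8.48 to 24.0%) had an mCherry UMI, against 78.9% of the other cells, and the level was 20.4 CPM in neural and 485 CPM in other cells. At 4 dpf of the late label it was 10 of 256 neural cells (3.91%; 1.89 to 7.07) against 42.3% of other cells, at 41.2 and 517 CPM. By 10 dpf of the early label 28 of 59 neural cells (47.5%; 34.3 to 60.9) had it, against 36.1% of the others, at 514 CPM (415 to 629) in neural and 293 CPM in other cells. With the mid label at 10 dpf the shares were 44.4% of neural and 42.4% of other cells, and with the late label at 10 dpf 28.6% of neural (13.2 to 48.7) and 55.6% of other cells. At 6 dpf the neural and other levels were 272 and 324 CPM with the early label, 177 and 203 CPM with the mid label, and 373 and 493 CPM with the late label. Counting intervals of the neural cells at 6 dpf were 166 to 421 CPM with the early label and 91.5 to 309 CPM with the mid label. Both held the level of the other cells, which lay just above the interval of the late label (291 to 470 CPM). With the early label, however, 11 of the 20 neural mCherry UMIs at 6 dpf came from the deepest cell. Without the deepest neural cell of each library the levels were 152 CPM with the early, 146 CPM with the mid and 454 CPM with the late label.

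A yellow fluorescent protein transcript, EYFP, ran the other way. It was found in 15 of 166 neural cells at 6 and 10 dpf (9.04%; 5.15 to 14.5) and in 131 of 368 (35.6%; 30.7 to 40.7) 1 day after labelling. At 2 dpf of the early label EYFP was at 101 CPM in neural cells (36 of 93 cells) and 30.7 CPM in other cells, and at 4 dpf of the late label at 176 CPM (91 of 256 cells) and 111 CPM. At 6 and 10 dpf of the early and mid labels EYFP had 0 UMIs in all 98 neural cells, which for the 59 cells of the early label at 10 dpf allows a share of up to 5.08%. The late label kept it, in 8 of 40 neural cells at 6 dpf and 7 of 28 at 10 dpf. The labels differed in the same way among other cells. There EYFP was in 6.02% and 4.04% at 6 and 10 dpf of the late label. With the early label it was in 0.585% and 0.515%, and with the mid label in 1.35% and 1.00%. Of the 534 cells, 85 had mCherry only, 128 EYFP only, 18 both and 303 neither. Thinned to 1000 UMIs per cell, the mCherry share was 29.3% at 10 dpf and 2.17% at 2 dpf of the early label, and the EYFP share 0 at 10 dpf and 5.43% at 2 dpf. No cell type in these sorted libraries is certain to lack either transcript. In haemoglobin-rich cells EYFP was in 3.62% at 4 dpf of the late label, at a median of 3819 UMIs, and in 12.9% of 31 cells at 2 dpf of the early label, at a median of 35204 UMIs. The part of free RNA in the shares was not tested. The labels used here do not say what EYFP stands for in these fish.

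**Figure D2:**
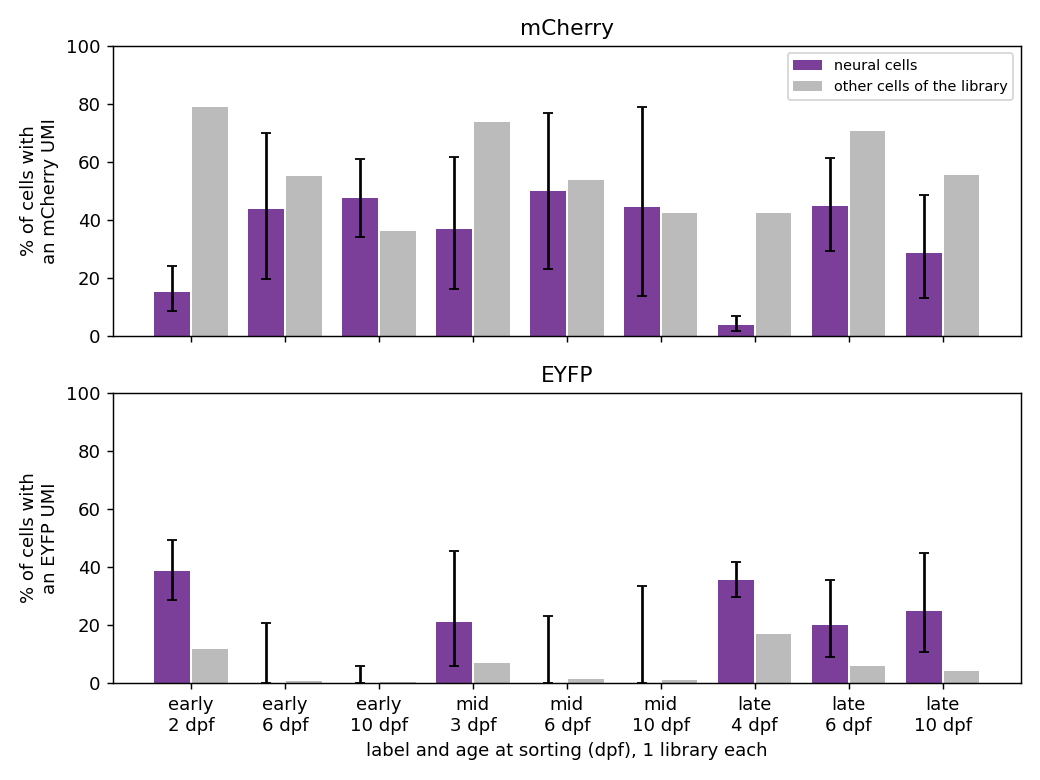
Percentage of cells with a UMI of mCherry (upper panel) and EYFP (lower panel) in neural cells (purple, with exact 95% binomial intervals) and in the other cells of each larval library (grey). At 2 and 4 dpf neural cells had mCherry less often (14 of 93 and 10 of 256 cells) than other cells (78.9% and 42.3%) and EYFP more often (38.7% and 35.5% against 11.8% and 17.1%).

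Transmitter genes were spread over the neural cells. A vesicular glutamate transporter (slc17a6a, slc17a6b or slc17a7a) was detected in 234 of 534 cells (43.8%; 39.6 to 48.1). Genes of GABA or glycine transmission (among them gad1b and gad2, the enzymes of GABA synthesis, and slc32a1, the inhibitory vesicle transporter) were detected in 223 (41.8%; 37.5 to 46.1). Both kinds were seen in 44 cells and neither in 121. These counts depend on depth. After thinning to 1000 UMIs the glutamate transporters were in 95 of 520 cells (18.3%; 15.0 to 21.9). The inhibitory genes were then in 137 (26.3%; 22.6 to 30.4), both kinds in 2 and neither in 290. Per library the inhibitory share was 51.6% at 2 dpf, 12.5% at 6 dpf and 18.6% at 10 dpf of the early label. With the late label it was 45.7% at 4 dpf, 20 of 40 cells at 6 dpf and 42.9% at 10 dpf. After thinning to 1000 UMIs the early-label shares were 19.6%, 12.5% and 13.8% in the order of age, and the late-label ones 31.6%, 44.4% and 23.1%, so the lower inhibitory share after 2 dpf with the early label was within the counting intervals at equal depth. The glycine transporter gene slc6a5 was found in 20 cells, 9 at 2 dpf of the early label and 11 at 4 dpf of the late label. Dopamine genes were rare, with th in 2 cells and slc6a3 in 6, and the serotonin gene tph2, in 8 of 534 neural cells, was no more frequent than in cells with at least 30% haemoglobin UMIs (2.25%). Among all neural cells gad2 was in 28.7%, slc32a1 in 32.6%, slc17a6b in 32.6% and slc6a5 in 3.75%. In the haemoglobin-rich cells, which should lack neuronal transcripts and had median depths of 2196 to 35204 UMIs per library, gad2 and slc32a1 were in 0.0687% each, slc17a6b in 0.893% and slc6a5 in 0.189%.

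Clustering parted the 534 cells into 11 subgroups, called here by number and leading genes, since cluster genes chose the subgroups and are no test of them. The leading genes are those with the highest log2 ratio of CPM + 5 to the remaining neural cells. The largest, subgroup 1 with 126 cells, had only weak leading genes such as elfn1b (2.37) and atp1b1b (2.32) and was present in every library. Subgroup 2 with 58 cells was led by ebf2, lhx9, barhl2, nhlh2 and pou3f2b, transcription factor genes of differentiating neurons. It held 22 cells at 2 dpf of the early label, 29 at 4 dpf of the late label, 3 at 3 dpf of the mid label and 4 at 6 dpf of the late label. Subgroup 3 with 50 cells was led by C2CD4C, iqsec2b and si:dkey-175g6.2, and scg2b was in 90.0% of its cells and fosab, an immediate-early gene, in 82.0%.

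**Figure D3:**
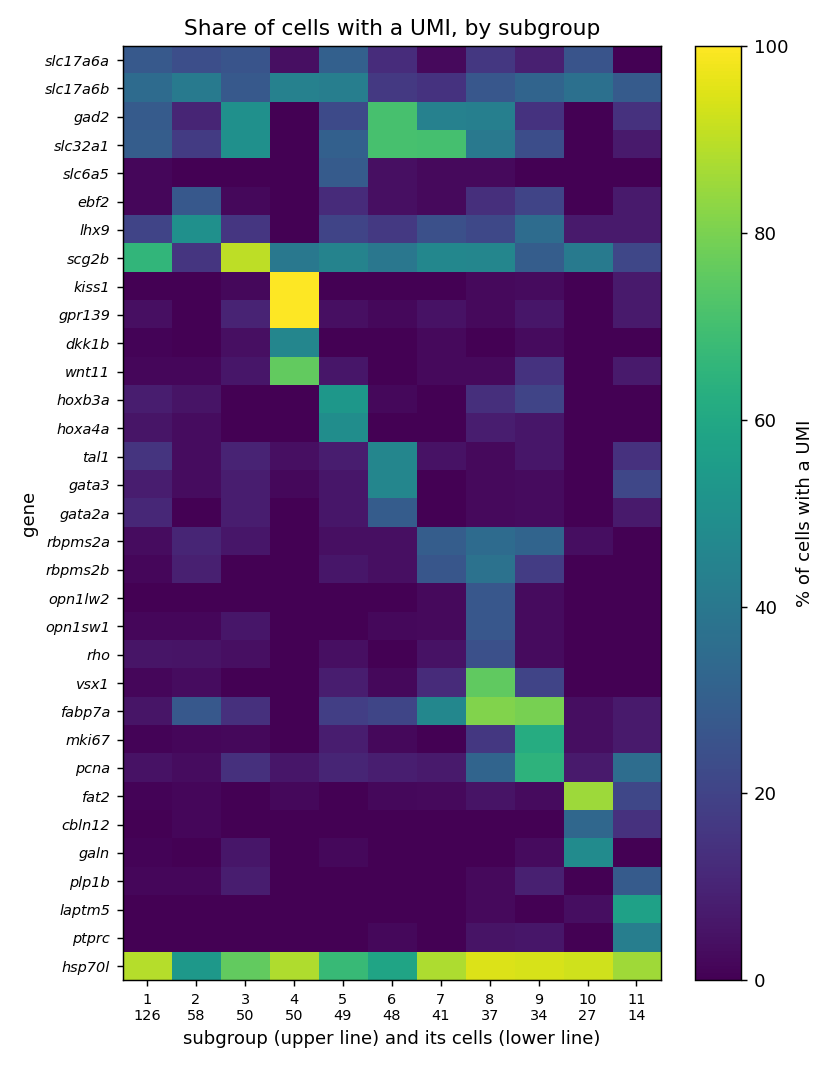
Percentage of cells with at least 1 UMI of each gene (rows) in the 11 neural subgroups (columns, with their numbers of cells), on a colour scale from 0 to 100%. The kiss1 gene fills subgroup 4 (100%) and fat2 subgroup 10 (85.2%). The gad2 and slc32a1 genes are in 70.8% each of subgroup 6, and also in at least 25% of the cells of subgroups 3 and 7.

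Subgroup 4 was the most distinct and appeared only in libraries of 6 and 10 dpf. All of its 50 cells had UMIs of kiss1, the kisspeptin precursor gene, which in zebrafish is known from the habenula, and of gpr139, an orphan receptor gene known from the habenula of mammals. The level of kiss1 was 4571 CPM in subgroup 4, with 560 UMIs, and the remaining 484 neural cells had 13 UMIs. It was accompanied by dkk1b, an inhibitor of Wnt signalling (46.0% of cells), the Wnt ligand gene wnt11 (76.0%), the protein kinase gene prkcq (80.0%), the kisspeptin receptor gene kiss1rb (42.0%) and the habenula-associated transcription factor gene pou4f1 (32.0%). The glutamate transporter gene slc17a6b was in 44.0% of the cells, while gad1b, gad2 and slc32a1 had 0 UMIs. With the early label subgroup 4 made up 9 of 16 neural cells at 6 dpf and 28 of 59 at 10 dpf (47.5%; 34.3 to 60.9). With the mid label it was 4 of 14 at 6 dpf and 3 of 9 at 10 dpf, and with the late label 4 of 40 and 2 of 28 (7.14%; 0.877 to 23.5). At 10 dpf the intervals of the early and late labels did not overlap. At 2, 3 and 4 dpf, 1 day after labelling, it was 0 of 93, 0 of 19 and 0 of 256, which allows up to 3.23%, 15.8% and 1.17%. Among the haemoglobin-rich cells of all libraries, kiss1 was seen in 0.0172%. An mCherry UMI was found in 23 of the 50 cells of subgroup 4 (46.0%, 31.8 to 60.7) and an EYFP UMI in 0 of 50, which allows up to 6.00%. Most of these cells came from early-label and mid-label libraries of 6 and 10 dpf, where EYFP had 0 UMIs in every neural cell.

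Subgroup 10 with 27 cells was led by fat2, a large cadherin gene, by hs6st3b, rasd1 and the cerebellin gene cbln12, and by galn, the galanin precursor gene. The fat2 and cerebellin genes are known from cerebellar granule cells. In subgroup 10 fat2 was in 85.2% of cells, cbln2b in 74.1%, neurod1 in 77.8%, the glutamate transporter gene slc17a7a in 55.6%, and gad1b, gad2 and slc32a1 in none. It held 9 of 59 neural cells at 10 dpf of the early label and 6 of 28 at 10 dpf of the late label, intervals that overlapped widely (7.22 to 27.0% and 8.30 to 41.0%). It held 3 of 19 cells at 3 dpf of the mid label and 1 of 256 at 4 dpf of the late label. An mCherry UMI was in 18 of 27 cells (66.7%, 46.0 to 83.5) and an EYFP UMI in none. Of the 27 cells, 9 at 10 dpf of the early label and 3 and 2 at 6 and 10 dpf of the mid label came from libraries without EYFP in any neural cell. At 6 and 10 dpf alone, mCherry was in 15 of 23 cells of subgroup 10 (65.2%; 42.7 to 83.6) and 9 of 9 of subgroup 11. Among the 84 cells of 6 and 10 dpf outside subgroups 4, 10 and 11, 25 (29.8%; 20.3 to 40.7) had mCherry.

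Subgroups 5 and 6 were nearly confined to the first day after labelling. Subgroup 5 with 49 cells was led by slc6a5, the glycine transporter gene, and the HOX genes hoxa4a and hoxb3a, which mark the hindbrain and spinal cord. A hoxb3a UMI was in 53.1% of its cells, hoxa4a in 49.0% and hoxd3a in 55.1%. It counted 16 cells at 2 dpf of the early label, 31 at 4 dpf of the late label, and 1 each at 3 and 6 dpf of the mid label. None of its 49 cells had mCherry, which allows up to 6.12%, and 9 had EYFP. Subgroup 6 with 48 cells was led by tal1 and gata3, followed by sox1b, zfpm2b and pax7b. The genes tal1, gata2a and gata3 are regulators of blood formation and also of GABAergic neurons in the midbrain and spinal cord. In subgroup 6 tal1 was in 45.8% of cells, gata3 in 45.8%, gata2a in 29.2%, and gad2 and slc32a1 in 70.8% each. In haemoglobin-rich cells tal1 was in 32.9%, and in the neural cells outside subgroup 6 in 8.02%. The blood genes lyz, ptprc, runx1 and myb were in 4.17%, 2.08%, 0 and 0 of the cells of subgroup 6. It held 20 cells at 2 dpf of the early label and 24 at 4 dpf of the late label.

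Retinal genes marked the next pair of subgroups. Subgroup 7 with 41 cells was led by tkta, cabp1b and the parvalbumin gene pvalb6, with slc32a1 in 70.7%, gad1b in 53.7% and rbpms2a, a gene of retinal ganglion cells, in 29.3%. From the list of retinal interneuron and ganglion genes, grm6b, tfap2a, tfap2b, rbpms2a and rbpms2b stood out. Each was in at least 25% of its cells and at least 2-fold above the remaining neural cells. The genes pou4f1, pou4f2 and isl2b of the same list did not reach both limits. It counted 29 cells at 4 dpf, 5 at 6 dpf and 6 at 10 dpf of the late label, 1 at 10 dpf of the early label, and none elsewhere. Subgroup 8 with 37 cells was mixed. From the photoreceptor list came 6 of its 10 leading genes. These were opn1lw2 and opn1sw1, the opsins of red and ultraviolet cones, and gngt2b, arr3a, pde6c and gnat2 of the cone light cascade. Leading genes rank by summed UMIs, and opn1lw2 and opn1sw1 were each in 27.0% of its cells. Of its cells, 14 had a UMI of rho, opn1lw2 or opn1sw1. Another 19 had vsx1, a transcription factor gene of retinal bipolar cells, without any of these opsins. In all, vsx1 was in 28 and fabp7a, a gene of radial glia, in 30 of the 37 cells. It held 6 cells at 2 dpf of the early label, all with vsx1 and none with an opsin, and 27 at 4 dpf of the late label, of which 12 had an opsin. EYFP was in 28 of its 37 cells (75.7%; 58.8 to 88.2) and mCherry in 4, at a median depth of 14311 UMIs. Cells with 3 or more photoreceptor genes were not all taken by the rule: there were 139 at 4 dpf of the late label, of which 25 were neural by the rule.

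The cell-cycle genes mki67, top2a, pcna and cdk1 were most frequent in subgroup 9, though none of that list is among its 10 leading genes. Its 34 cells were led by cxcl18b, si:dkey-239h2.3, crabp2a and histone genes, with mki67 in 61.8%, top2a in 55.9%, pcna in 64.7% and cdk1 in 17 of 34 cells. The progenitor genes fabp7a (79.4%) and sox2 (58.8%) were frequent in it. It counted 16 cells at 2 dpf of the early label and 12 at 4 dpf of the late label. Its cells were deep, with a median of 16197 UMIs, and the cell with 451040 UMIs was 1 of them. Leading genes rest on summed UMIs, so deep cells weigh most in them. The deepest neural cells at 2 and 6 dpf of the early label and at 4 and 10 dpf of the late label were in subgroup 9. Their levels over the 37 pan-neuronal genes were 5409, 488, 664 and 1126 CPM. The cells left out with exactly 2 of the 6 genes had 2505 CPM. Subgroup 11, the smallest with 14 cells, was led by plp1b, icn, cd9b, srgn and pfn1. Its leading genes plp1b and mbpb belong to the list of oligodendrocyte, Schwann and neural crest genes. A plp1b UMI was in 28.6% of its cells and 2.12% of the remaining neural cells, with 633 and 14 UMIs. Few cells carried these UMIs: at 6 dpf of the late label 283 came from 1 neural cell. That list was higher in neural than in other cells in 6 of 9 libraries. Leukocyte genes were also detected in subgroup 11, laptm5 in 57.1% of cells, coro1a in 7 of 14 and ptprc in 42.9%. Of its 14 cells 8 had 2 or more genes of the leukocyte list. None of these 8 was among its 4 cells at 4 dpf of the late label, where 0 neural cells had 2 or more leukocyte genes. mCherry was in 10 of 14 (71.4%; 41.9 to 91.6). The share of doublets in subgroup 11 was not tested directly. Leaving out the likeliest doublets of each library removed 62 of the 534 neural cells, and 989 of all 28589 barcodes. Neural cells were thus marked more often than barcodes as a whole. By library this ran from 0 of 14 neural cells at 6 dpf of the mid label to 10 of 28 at 10 dpf of the late label.

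**Figure D4:**
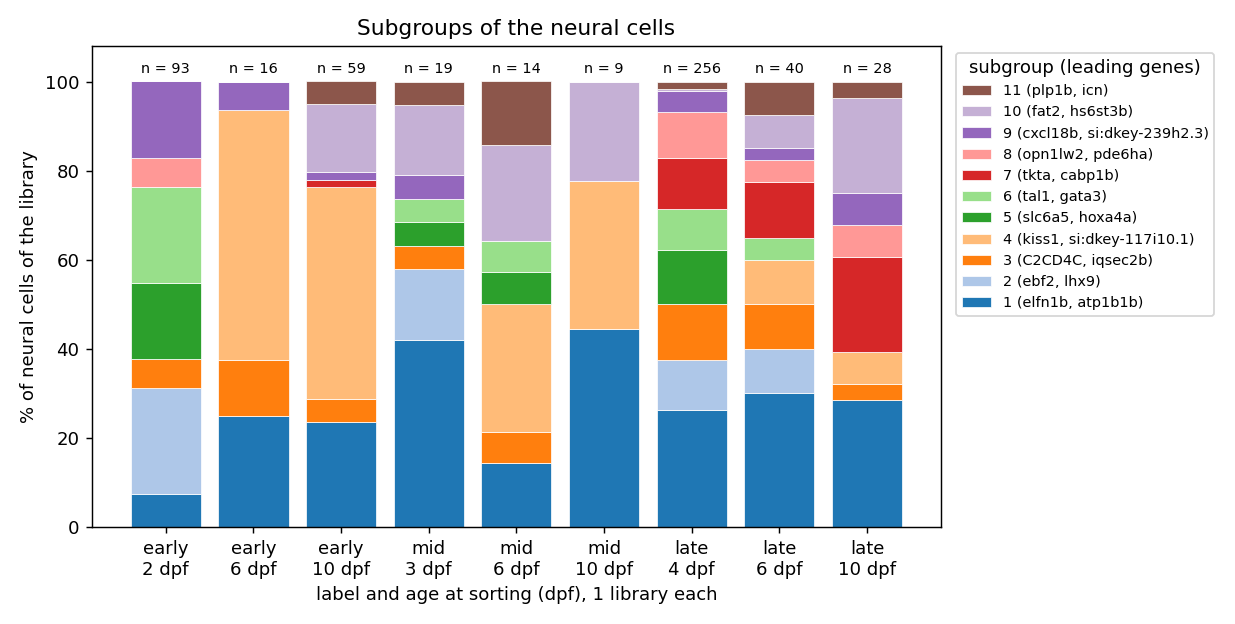
Composition of the neural cells of each larval library by subgroup, as a percentage of its neural cells, whose number stands above each bar. Subgroups 2, 5 and 6 fill much of the bars at 2 and 4 dpf, and subgroup 4 makes up 9 of 16 and 28 of 59 cells at 6 and 10 dpf of the early label.

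Age was followed within the early label by summing the 59 neural cells at 10 dpf and the 93 at 2 dpf. The sums were 181048 UMIs at 10 dpf and 1470213 at 2 dpf. Of 4245 genes with at least 50 UMIs in the higher library, 378 (8.90%) were past 2-fold higher at 10 dpf and 1571 (37.0%) past 2-fold lower, with a median log2 ratio of -0.62. The unequal totals weigh on this split, since 50 UMIs are reached more easily in the deeper sum. With the 2 dpf sum thinned to the same total, 600 genes were left, 149 higher and 222 lower, with a median of -0.54.

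The highest gene at 10 dpf was kiss1, with 292 UMIs in 50.8% of cells at 10 dpf against 1 UMI at 2 dpf (1613 CPM, 1433 to 1809, against 0.680 CPM, 0.0172 to 3.79; log2 ratio 8.15). Next came si:dkey-117i10.1 (8.00), the G-protein regulator gene rgs16 (7.23), dkk1b (6.43), si:dkeyp-72h1.1 (6.35), the calcium-binding protein gene CABP7 (6.16), pnoca, the nociceptin precursor gene (6.07), gpr139 (5.65), camkvb (5.60) and prkcq (5.54). Of these 10 genes, kiss1, si:dkey-117i10.1, dkk1b, si:dkeyp-72h1.1, gpr139 and prkcq are also among the 10 leading genes of subgroup 4, which made up 28 of the 59 cells. dkk1b had 77 UMIs, in 9 of the 59 cells, at 10 dpf and 0 at 2 dpf, or 208-fold higher with the 0 set to 3 counts.

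The lowest gene at 10 dpf was fabp7a, encoding a fatty acid binding protein of radial glia. It had 0 UMIs against 5645 UMIs in 45.2% of cells at 2 dpf, or 232-fold lower with the 0 set to 3 counts. The growth factor gene mdka had 0 UMIs against 412, and lin28a, an RNA-binding protein gene of early development, 0 against 356. The retinal genes vsx1 and gnb3a had 0 UMIs against 530 and 364, and tubb5, a tubulin gene of newborn neurons, 1 against 1104. Of all 4245 tested genes 37.0% were past 2-fold lower at 10 dpf. Among the fixed lists, all 7 tested genes for progenitors and radial glia were, with a median of -3.68. So were 12 of 14 tested proneural and newborn-neuron genes, with a median of -2.99. Examples are sox2 (0 against 87 UMIs), dla, a Notch ligand gene (0 against 128), neurog1 (0 against 66) and insm1a (2 against 202). Of 6 tested cell-cycle genes 5 were past 2-fold lower, with mki67 at 5.52 CPM against 127 CPM. At equal totals 2 progenitor, 4 newborn-neuron and 1 cell-cycle gene could be tested, and 2, 3 and 1 of them were past 2-fold lower. Of all 600 genes tested at equal totals, 222 were. Of 10 tested genes of retinal interneurons and ganglion cells 7 were lower and 1 higher, with a median of -3.49, and subgroup 8 had 6 cells at 2 dpf and 0 at 10 dpf. At equal totals 1 of these retinal genes could be tested, and it was past 2-fold lower. The tested progenitor, newborn-neuron and retinal genes reached 50 UMIs only in the 2 dpf sum. The filter itself therefore favoured lower values at 10 dpf in these lists.

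Of 34 tested pan-neuronal genes 10 were past 2-fold lower and 2 higher at 10 dpf, with a median of -0.30. These counts are near the 37.0% and 8.90% of all genes and say nothing particular of the list; scg2b (1.5) was 1 of the higher ones. The transmitter genes slc17a6b (105 CPM against 85.7 CPM), gad2 (105 against 125 CPM) and slc32a1 (93.9 against 80.9 CPM) lay within 2-fold. Of 8 tested genes of the dissociation response, 5 were past 2-fold higher at 10 dpf, among them hsp70l, a heat-shock gene, at 34637 CPM against 4992 CPM, jun at 1392 CPM against 269 CPM and fosab at 994 CPM against 258 CPM. At equal totals 4 of 6 were. The summed level of hsp70l was higher in neural than in other cells in all 9 libraries, at 48432 CPM in neural and 6538 CPM in other cells at 6 dpf of the early label, and 37612 and 3184 CPM at 6 dpf of the mid label. The median neural cell had 25479 CPM at 10 dpf and 787 CPM at 2 dpf of the early label. At 3 dpf of the mid label it had 2554 CPM, and at 4 dpf of the late label 1171 CPM. The summed levels of 4992, 7076 and 13988 CPM at 2, 3 and 4 dpf thus came from part of the cells. By subgroup the summed level of hsp70l was 39715 CPM in subgroup 4 and 44375 CPM in subgroup 10, and 1772 and 1454 CPM in subgroups 2 and 6. The globin gene hbbe2 was also high at 10 dpf (69 UMIs, against 5 at 2 dpf; log2 ratio 5.52). The part of stress and of free RNA in the other differences was not tested.

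The late label at 4 dpf and the early label at 2 dpf were the other pair with enough cells, but they differ in age, label and software version, which cannot be told apart. The 256 cells at 4 dpf held 1746405 UMIs and the 93 at 2 dpf 1470213. Of 5877 genes tested, 1050 (17.9%) were past 2-fold higher in the late label at 4 dpf and 241 (4.1%) lower, with a median of 0.17. Genes of light detection led. The rod opsin gene rho had 4822 UMIs at 4 dpf against 0 at 2 dpf, though in only 9.77% of the cells. This was 1353-fold higher with the 0 set to 3 counts. The cone genes gngt2b (8.52 on the log2 scale), opn1lw2 (7.93, 2124 UMIs against 0), pde6ha (7.69) and opn1sw1 (7.46) followed, and gnb3b, arr3a and gngt1 were also among the 10 highest. In all, 20 of 21 tested photoreceptor and pineal genes were past 2-fold higher, with a median of 4.94. A further 2 of the 10 highest genes came from few cells, the relaxin gene rln3a (1940 UMIs in 1.95% of cells) and vipb, encoding vasoactive intestinal peptide (564 UMIs in 0.781%). The other cells at 4 dpf of the late label also carried photoreceptor genes, at 3661 CPM over the list against 11323 CPM in the neural cells.

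Of 34 tested pan-neuronal genes 13 were past 2-fold higher at 4 dpf and 0 lower, where 17.9% of all genes were higher and 4.1% lower, and 21 lay within 2-fold. Their median was 0.52, and among the 13 were sypb, encoding the vesicle protein synaptophysin (510 CPM against 97.3 CPM), snap25b (704 against 175 CPM), scg2b (602 against 146 CPM) and the sodium pump gene atp1a3b (250 against 53.7 CPM). Of 14 proneural and newborn-neuron genes 8 were past 2-fold lower and 0 higher, with a median of -1.12 beside 0.17 for all genes. Examples are atoh7, which in the retina precedes ganglion cells (0 UMIs against 64), ebf2 (17.2 CPM against 100 CPM), neurog1 (6.30 against 44.9 CPM) and dla (16.0 against 87.1 CPM). Of 6 cell-cycle genes 3 were lower, and mki67 was at 40.1 CPM against 127 CPM. The hypothalamic transcription factor genes otpa (72.7 against 380 CPM) and otpb (32.6 against 192 CPM) were past 2-fold lower. Unlike at 10 dpf of the early label, fabp7a (2872 against 3840 CPM) and vsx1 (468 against 360 CPM) lay within 2-fold. Among the 10 lowest genes was atp6v0e1, a proton pump subunit gene, in 9.77% of cells at 4 dpf and 94.6% at 2 dpf (24.0 CPM against 512 CPM). The ribosomal gene rpl26 was likewise in 17.2% against 88.2% of cells (37.8 CPM against 343 CPM). Both genes are used by cells of every kind. At 10 dpf of the early label atp6v0e1 was in 15 and rpl26 in 6 of 59 neural cells. At 3 dpf of the mid label they were in 8 and 9 of 19. These libraries share the software version of the 2 dpf library but not its depth. Median UMIs per neural cell were 8864 at 2 dpf, 2404 at 10 dpf of the early label and 6618 at 3 dpf of the mid label. How much of these gaps was depth was not tested. The summed hsp70l level was 13988 CPM against 4992 CPM, but 1171 against 787 CPM in the median cell. The part of stress and of the software versions in these differences was not tested.

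**Figure D5:**
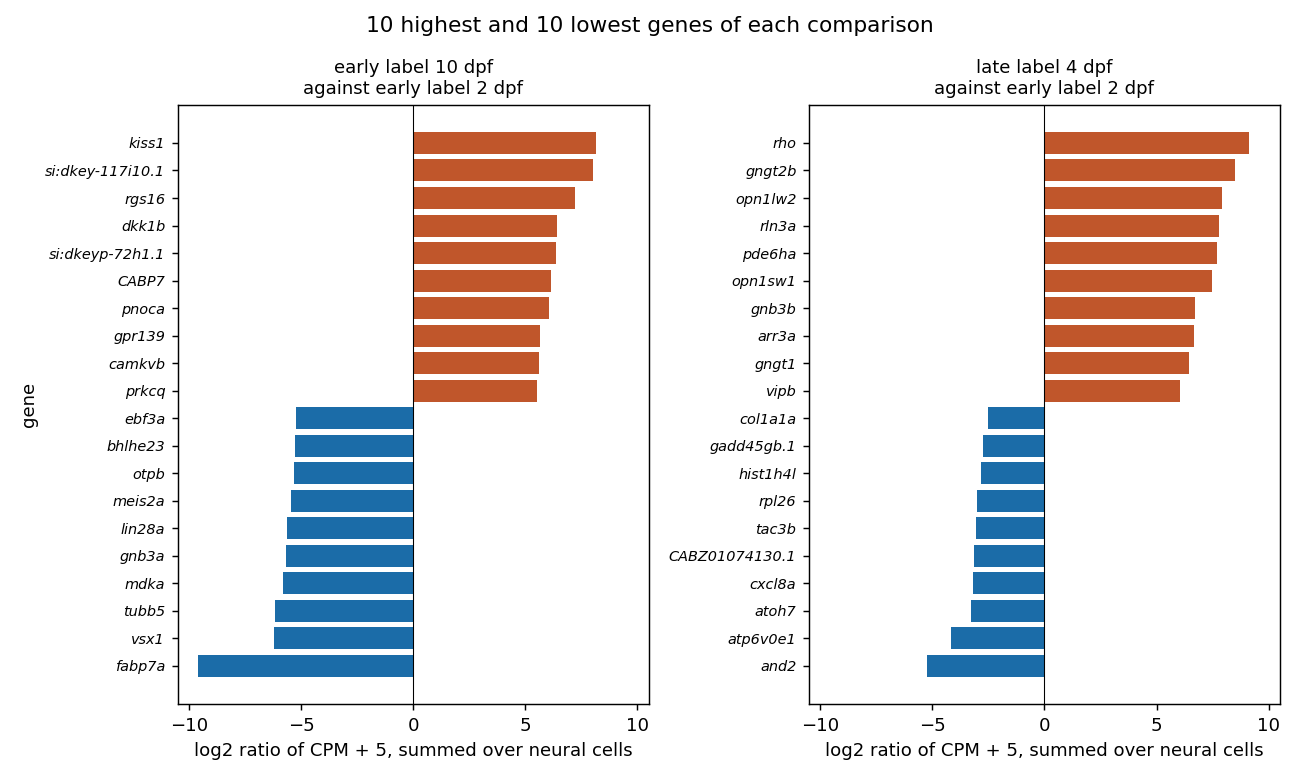
The 10 highest and 10 lowest genes by log2 ratio of CPM + 5, summed over neural cells, for the early label at 10 against 2 dpf (left) and for the late label at 4 dpf against the early label at 2 dpf (right). The extremes are kiss1 (8.15) and fabp7a (-9.59) on the left and rho (9.11) and and2 (-5.22) on the right; where a library has 0 UMIs the bar length depends on the added 5 CPM, and a symbol held by more than 1 feature is shown for the feature that qualified.

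Larvae at 8 dpf with the early label, from the crispant experiment, held many more such cells. The same rule took 434 of 12328 cells (3.52%) in rag1 crispants given R848, 561 of 15835 (3.54%) in slc24a5 crispants given R848, 476 of 8341 (5.71%) in untreated rag1 crispants and 840 of 14301 (5.87%) in untreated slc24a5 crispants. The larval tracing libraries with the early label had 0.548% at 6 dpf and 0.793% at 10 dpf. Age, mutation, kit version and software version differ between these sets and cannot be told apart. The leading genes of subgroups 4 and 10 were found in the tracing cells themselves, so the tracing shares below largely restate those subgroups. Cells with at least 2 of the 5 leading genes of subgroup 4 were 31 of 59 neural cells at 10 dpf of the early label (52.5%, 39.1 to 65.7) and 9 of 16 at 6 dpf. In the crispants they were 133 of 434 in rag1 with R848 (30.6%; 26.3 to 35.2), 177 of 561 in slc24a5 with R848 (31.6%; 27.7 to 35.6), 188 of 476 in untreated rag1 (39.5%; 35.1 to 44.0) and 238 of 840 in untreated slc24a5 (28.3%; 25.3 to 31.5). The leading genes of subgroup 10 marked 7 of 59 neural cells at 10 dpf of the early label (11.9%; 4.91 to 22.9) and 8.02% to 12.9% of those of the crispants. In the crispant neural cells mCherry was seen in 74.7% to 78.9%, and in 61.7% to 66.5% of the other cells. EYFP was seen in 2 of 133, 4 of 177, 1 of 188 and 10 of 238 crispant neural cells with the subgroup 4 genes, in the order above. With the subgroup 10 genes it was in 4 of 56, 1 of 45, 1 of 42 and 7 of 98. At 10 dpf of the early label another 36 cells, with a median of 2023.5 UMIs, had 2 or more of the subgroup 4 genes without being neural by the rule, and their other transcripts were not examined.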

How the data were processed

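Cells were isolated from whole larvae by mincing, enzymatic digestion and sorting for mCherry, per the labels' protocols, and sequenced with a 3′ single-cell kit. The deposited values are raw UMI counts per gene and barcode, which the authors made with Cell Ranger, version 7.1.0 for the early and mid labels and 7.0.1 for the late label per the file headers, and GRCz11 per the submitters' processing notes. Cells were filtered and chosen by the rule given at the start of the report; 1 library is 1 group, so levels are summed CPM (share of UMIs times 1000000) with exact Poisson intervals and shares have exact (Clopper-Pearson) intervals at 95%. Zero counts are given an upper limit of 3 counts. The other cells are all remaining cells kept. Libraries with at least 50 neural cells were compared by log2 ratios of CPM + 5 over genes reaching 50 UMIs in 1 of both libraries, with a limit of 2-fold. Both gene comparisons were chosen after the data were seen, because no planned pair of labels had 50 neural cells on both sides. Thinning drew 1000 UMIs per cell and kept 520 of 534 cells. Doublets were kept in the main results. Subgroups came from Leiden clustering (scanpy 1.11.5, igraph 0.11.9, resolution 1, 2000 variable genes, 20 components, 15 neighbours), counts from pandas 2.3.3 and numpy 2.4.6 under Python 3.11.15, intervals from scipy 1.17.1 and figures from matplotlib 3.10.9. The ratio calculation was tested on simulated data. Named genes are those of the marker lists, the 25 highest against other cells, the 10 highest and lowest of each comparison and the leading genes of each subgroup; wnt11, kiss1rb, cbln2b, gata2a and hbbe2 were chosen after their values were seen. The members and lists were chosen with earlier results of these data known. Sequences are not printed here.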

Additional observations from a re-analysis of the deposited data

Results flagged for a closer look

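Under the rule as given, the sign of the difference in neural share between labels was opposite at 10 and 6 dpf. Early minus late came to 0.0188 points in larvae of 10 dpf, against -0.299 points in those of 6 dpf. The sign at 10 dpf was not stable. With 2 of the 6 genes the value was -0.0868 points, and with 2 of elavl3, elavl4, stmn1b and sncb -0.0119 points. Without cells with 2 or more leukocyte genes it was -0.00732 points. Under the other alternatives run it stayed above 0. Early minus mid came to 0.503 points in the older and -0.0793 points in the younger larvae. The change between ages was not tested, since each label and age is 1 library, and 3 of the 4 intervals include 0. A transcript outside the comparisons, the fluorescent protein mCerulean, had 25 UMIs in 23 of the 534 neural cells and 182 UMIs in the other cells of the 9 libraries.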

How the results depend on the processing

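The 4 differences in neural share stayed inside the intervals reported for them under the alternatives run (2 or 4 of the 6 genes, thinning, at least 1000 UMIs, without likely doublets, no endothelial or haemoglobin limit, another gene choice), except when only cells with under 5% haemoglobin were counted. Then the early minus late difference at 10 dpf was 0.749 points and the early minus mid difference 1.07 points; the base of the share changes by construction. The early minus late difference at 6 dpf had an interval including 0, but one leaving out 0 with 2 of the 6 genes (-0.611 points, -1.05 to -0.149) and with 2 of elavl3, elavl4, stmn1b and sncb (-0.510 points, -0.919 to -0.0747). Of 81 alternative shares per library, 70 lay within the interval of the share as reported. For 10 against 2 dpf of the early label, 1949 genes were past 2-fold, 3376 with at least 20 UMIs in place of 50, and 371 at equal totals, where fewer genes could be tested. For the late label at 4 dpf against the early label at 2 dpf, 1291 genes were past 2-fold, 2069 with at least 20 UMIs and 2593 past 1.5-fold. Of 18 transmitter shares, 9 fell below their intervals after thinning and the rest stayed inside. The subgroups numbered 11 at resolution 1 and 7 at resolution 0.5, where the 50 kiss1 cells were again a subgroup of their own. No paired analysis was possible because each group is 1 library and the labels give no replicate numbers. Depth limits the small libraries most: with 9 neural cells at 10 dpf of the mid label, a count of 0 allows a share of up to 33.3%. These limits of 3 counts lie below the upper bound of the exact interval.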
